A study of Mus musculus with 6 samples.

Results

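Transcripts of 10 inflammatory and regulatory cytokine genes were followed in brown adipose tissue (BAT) of mice fed a low-fat or a high-fat diet. The genes were *Tnf*, *Il1a*, *Il1b*, *Il1rn*, *Il6*, *Il10*, *Il15*, *Il18*, *Il33* and *Ifng*, found by their symbol among the 47729 genes quantified in each mouse. All animals were wild type male C57BL/6J mice, 6 weeks old when feeding began and 10 weeks old at its end. The high-fat diet (HFD) group, 3 mice, received a 45% high-fat diet, and the low-fat diet (LFD) group, 3 mice, received a standard rodent diet. Per the study's methods, mice were housed singly, and the animals with the greatest, the medium and the least fat mass out of 5 in each diet were sequenced, from the right side of the interscapular depot. Each library is 1 mouse, so the spread given here is between animals, and wherever 3 levels or counts are listed for a diet they stand in the order of replicates 1 to 3.

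TNF, interleukin (IL)-1α, IL-1β, IL-18 and IL-33 are released by immune, stromal or dying cells and drive inflammation through receptors that lead to NF-κB. IL-1 receptor antagonist, the product of *Il1rn*, occupies the IL-1 receptor without signaling, and IL-10 restrains macrophages through STAT3. IL-6 signals through gp130, IL-15 sustains NK cells and memory T cells, and interferon-γ, made by NK and T cells, activates macrophages. In adipose tissue these factors are studied as part of the low-grade inflammation of obesity, and TNF and IL-1β are known to dampen thermogenic gene expression in brown adipocytes.

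Total rounded counts were 17156991 to 21603487 per mouse. The labeled tissue was checked against its markers. *Ucp1*, which marks brown adipocytes, had 796 to 4021 TPM (transcripts per 1000000 transcripts, a level corrected for transcript length) in HFD-fed mice. In LFD-fed mice it had 443, 11.0 and 76.0 TPM. The 8 brown adipocyte markers summed to 2330 to 7571 TPM in HFD-fed and 951 to 4760 TPM in LFD-fed mice. Much of the LFD sums was *Adipoq*, with 1823, 2015 and 470 TPM, against 640, 689 and 388 TPM in HFD-fed mice. *Cidea* had 222, 18.9 and 38.6 TPM in LFD-fed and 468, 734 and 222 TPM in HFD-fed mice. By edgeR fold change, 6 of the 8 were higher and 2 lower in HFD-fed mice. The amount of brown fat in each sample was not tested. The 12 skeletal muscle markers had a summed level of 7.38 to 190 TPM in HFD-fed and 1869 to 12819 TPM in LFD-fed mice, so the LFD libraries held far more muscle transcript. Summed levels of 12 macrophage markers overlapped between diets, with 1864 to 3918 TPM in HFD-fed and 594 to 4373 TPM in LFD-fed mice, and the lowest was LFD replicate 1. That mouse also stood apart in the cytokines, with 294 rounded counts over the 10 genes. The other LFD-fed mice had 1071 and 1209, and the HFD-fed mice 1446 to 3250. From replicate 1 to 3, the mitochondrial share of the library fell within each diet. It was 22.7%, 16.5% and 8.5% with HFD, and 13.8%, 9.12% and 3.87% with LFD, so the diets overlapped. Summed TPM of the 10 genes rose in the same order, with 55.65, 86.6 and 154 TPM in HFD-fed mice. In LFD-fed mice it was 10.6, 52.5 and 78.1 TPM. The part of library make-up in the cytokine levels was not tested. In such bulk tissue, fewer cells of a type and less RNA per cell cannot be told apart.

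With the study's thresholds (adjusted p under 0.01, log2 fold change beyond 1.5 either way), edgeR called 0 of the 10 cytokine genes, and 0 of all 17668 genes tested (0%) by its quasi-likelihood test. At an unadjusted p under 0.05 there were 3 cytokine genes, *Il1rn*, *Il10* and *Tnf*, all higher in HFD-fed mice. In the whole table, 10.5% of the genes tested were at that p, made up of 3.86% higher and 6.62% lower in HFD-fed mice. DESeq2 with default settings called *Il1rn* and *Il10*, 2 of the 10, beside 2.06% of the genes with a DESeq2 adjusted p. The labels do not link mice between the diets. With mice of the same replicate number nonetheless treated as a pair, 6 cytokine genes had an unadjusted p under 0.05 by edgeR. All 6 were higher in HFD-fed mice, beside 17.5% of all genes (8.75% higher), and 0 of the 10 were called. *Il1a* and *Ifng* had too few reads for the filter on low counts, so 8 of the 10 were tested. In normalized counts (log2 of counts per 1000000 counts, CPM), every HFD-fed mouse lay above every LFD-fed mouse for 5 of the 10, *Tnf*, *Il1a*, *Il1rn*, *Il10* and *Il15*, *Il1a* being untested, beside 6.72% of all genes tested. For each of these 5 the two-sided exact permutation test gave p = 0.1, the smallest that 3 against 3 mice allow. Every HFD-fed mouse lay below every LFD-fed mouse for 0 of the 10, beside 9.23%. In TPM 4 of the 10 lay above in every HFD-fed mouse, *Il15* no longer among them, beside 1.65%. Without LFD replicate 1, the number above in log2 CPM was 5, beside 14.3%.

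**Figure D1:**
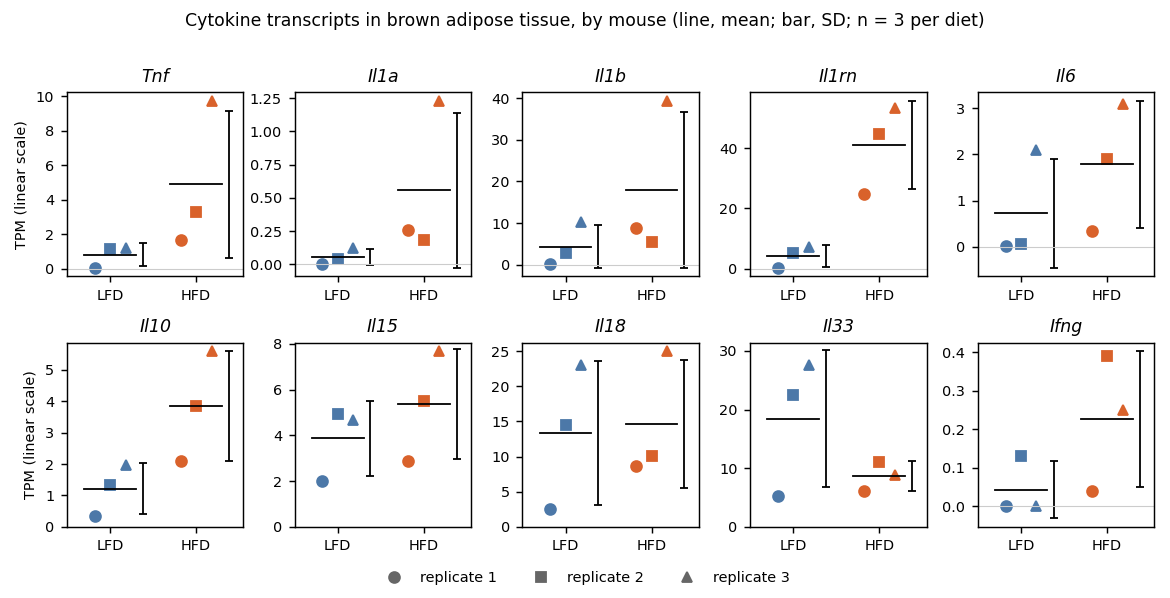
TPM of the 10 cytokine genes (linear vertical axes, a scale of its own for each gene) in 3 LFD-fed (blue) and 3 HFD-fed (orange) mice, with the symbol giving the replicate number, a line at the mean and a bar of 1 SD. The 3 HFD-fed mice lie above the LFD-fed mice for *Tnf*, *Il1a*, *Il1rn* and *Il10*, while *Il18* overlaps and *Il33* is highest in 2 LFD-fed mice.

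The region upstream of the start site is shown for the agonists and the antagonist of the IL-1 receptor and for *Tnf*. Among the 8 tested genes *Il1rn*, *Tnf* and *Il1b* had the largest fold changes, and *Il1a* is the neighbor of *Il1b*. The sequences are the 250 bases before the RefSeq start in GRCm38.p6, 5′ to 3′ on the strand of the gene. They lie at chr2:24336610-24336859 (plus strand, the first of 3 starts of *Il1rn*), chr2:129309973-129310222 (minus strand, *Il1a*), chr2:129371140-129371389 (minus strand, *Il1b*) and chr17:35202008-35202257 (minus strand, *Tnf*). Capitals mark TATAAA, the core of a TATA box, and TGANTCA, the core of an AP-1 site.
Il1rn: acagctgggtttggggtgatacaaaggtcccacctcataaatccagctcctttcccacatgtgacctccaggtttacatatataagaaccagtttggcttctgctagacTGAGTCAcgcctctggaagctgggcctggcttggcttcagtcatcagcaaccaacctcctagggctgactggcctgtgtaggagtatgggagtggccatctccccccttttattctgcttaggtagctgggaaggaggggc
Il1a: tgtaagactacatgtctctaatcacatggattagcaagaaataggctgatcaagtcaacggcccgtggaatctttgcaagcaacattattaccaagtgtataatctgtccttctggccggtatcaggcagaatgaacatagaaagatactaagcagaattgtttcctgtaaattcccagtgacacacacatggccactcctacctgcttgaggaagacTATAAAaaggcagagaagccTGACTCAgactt
Il1b: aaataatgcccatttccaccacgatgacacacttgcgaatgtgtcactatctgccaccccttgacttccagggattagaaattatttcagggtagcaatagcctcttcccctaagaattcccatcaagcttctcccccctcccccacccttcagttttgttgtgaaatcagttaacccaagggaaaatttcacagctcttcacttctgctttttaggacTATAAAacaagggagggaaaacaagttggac
Tnf: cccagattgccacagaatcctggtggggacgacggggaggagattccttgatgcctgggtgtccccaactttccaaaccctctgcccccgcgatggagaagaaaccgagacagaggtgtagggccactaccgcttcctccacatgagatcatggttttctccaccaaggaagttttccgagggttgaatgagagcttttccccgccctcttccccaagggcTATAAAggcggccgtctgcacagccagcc
TATAAA ended 27 bases before the start in *Il1a*, 26 in *Il1b* and 24 in *Tnf*, and the *Il1rn* sequence above had TGANTCA alone. Motifs were searched on both strands in windows from 250 bases before to 50 bases after each start, and they did not overlap one another. TATAAA was in 8 of the 11 windows of the 8 cytokine genes with an entry (*Il10* and *Il15* had none), and in 13.6% of all 32851 windows. These counts take a match at any place in the window. In *Ifng* and the second *Il33* window it ended 25 and 24 bases before the start. It ended 170 bases before the start in *Il18* and 198 in the first *Il33* window, and lay after the start in the third *Il1rn* window. TGANTCA was in 3 of the 11 and in 7.81% of all windows. The NF-kappaB consensus was in 1 of the 11, that of *Il6*, and in 8.46% of all windows. A match describes these letters and no measured binding.

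*Il1rn* (ENSMUSG00000026981, chromosome 2 from 24336853 to 24351494, plus strand) encodes the IL-1 receptor antagonist and was the most abundant of the 10 in HFD-fed mice. It had 24.7, 44.8 and 53.4 TPM in HFD-fed mice against 0.14, 5.0 and 7.22 TPM in LFD-fed mice. The lowest HFD-fed mouse was thus well above the highest LFD-fed mouse. Rounded counts were 668, 849 and 1284 against 3, 93 and 133, so the value of LFD replicate 1 rests on very few reads. The log2 fold change, HFD over LFD, was 3.57 (standard error 0.95, unadjusted p = 0.00738, edgeR adjusted p = 0.260). It was the largest of the 8 tested. Without LFD replicate 1 it was 3.02 (edgeR unadjusted p = 8.707e-05, adjusted p = 0.174), and with any 1 mouse left out it stayed between 3.02 and 4.23. With DESeq2 it was 3.61 (adjusted p = 0.00228), past the thresholds, and edgeR gave 4.03 with same-numbered mice paired (adjusted p = 0.122). RSEM gave it fractional counts in part of the mice, so some reads were shared with other transcripts.

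*Il1b* (ENSMUSG00000027398, chromosome 2 from 129364570 to 129371139, minus strand) encodes the secreted ligand IL-1β, which caspase-1 cleaves into its active form. It had 8.87, 5.49 and 39.4 TPM in HFD-fed mice against 0.09, 2.86 and 10.1 TPM in LFD-fed mice. The diets overlapped, since LFD replicate 3 exceeded HFD replicates 1 and 2 in TPM, and HFD replicate 2 alone in log2 CPM (2.62 against 2.07). Each HFD-fed mouse was above the LFD-fed mouse of its number. Its log2 difference between the diets was 2.43 (standard error 1.19, edgeR unadjusted p = 0.0819, adjusted p = 0.542), and 2.69 with same-numbered mice paired (edgeR unadjusted p = 0.0269, adjusted p = 0.216). The unpaired value ranged from 1.37 without HFD replicate 3 to 3.90 without LFD replicate 3, so single mice set its size. An antisense transcript, *Il1bos*, overlaps the gene, and the strand setting of the quantification is not given in the sources used here.

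*Il1a* (ENSMUSG00000027399, chromosome 2 from 129299610 to 129309972, minus strand) lies 54.6 kb from *Il1b* and encodes IL-1α, a ligand that is active without cleavage and is freed by dying cells. It was rare, with 11, 5 and 41 rounded counts (0.26, 0.18 and 1.23 TPM) in HFD-fed mice. In LFD-fed mice it had 0, 1 and 3 rounded counts (0, 0.04 and 0.12 TPM), where a count of 0 allows up to 0.191 CPM. Summed over mice, 57 counts stood against 4, a ratio of 13.2 per normalized read (95% exact interval 4.87 to 50.0, which covers counting error only). Most of the HFD reads came from replicate 3. RSEM gave the gene fractional counts in 4 mice, so part of its reads were shared with other transcripts, and *Gm14023* overlaps it on the other strand.

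*Tnf* (ENSMUSG00000024401, chromosome 17 from 35199381 to 35202007, minus strand) encodes TNFα, made chiefly by macrophages, T cells and NK cells. Its level was 1.69, 3.30 and 9.73 TPM in HFD-fed mice against 0.04, 1.17 and 1.22 TPM in LFD-fed mice, so the diets did not overlap, and HFD replicate 3 was far above the rest. The log2 fold change was 2.95 (standard error 0.91, edgeR unadjusted p = 0.0152, adjusted p = 0.337). With DESeq2 it was 2.99 (adjusted p = 0.0177), not past the thresholds. Leaving LFD replicate 1 out lowered the edgeR value to 2.43 and its unadjusted p to 0.0112 (adjusted p = 0.228). Leaving HFD replicate 3 out gave 2.20 (edgeR unadjusted p = 0.0559).

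*Il10* (ENSMUSG00000016529, chromosome 1 from 131019845 to 131024974, plus strand), which encodes the main anti-inflammatory cytokine of the set, had 2.10, 3.84 and 5.60 TPM in HFD-fed mice against 0.36, 1.34 and 1.96 TPM in LFD-fed mice. Every HFD-fed mouse was above every LFD-fed mouse. The gap between HFD replicate 1 and LFD replicate 3 was small in TPM and wider in log2 CPM (1.74 against 0.60). Rounded counts were 57, 76 and 120 against 8, 23 and 29. The log2 fold change was 1.97 (standard error 0.47, edgeR unadjusted p = 0.00444, adjusted p = 0.215), the smallest p of the 8. It was 1.99 with DESeq2 (adjusted p = 0.00305), past the thresholds, and 2.04 with same-numbered mice paired (edgeR adjusted p = 0.0779). With each mouse left out in turn it stayed between 1.66 and 2.29, a narrower range than that of *Tnf*, *Il1b* or *Il1rn*.

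The other IL-1 family members were the most abundant of the 10 in LFD-fed mice. *Il18* (ENSMUSG00000039217, chromosome 9 from 50554827 to 50581840, plus strand), whose product prompts NK and T cells to make interferon-γ, had 8.65, 10.1 and 25.1 TPM in HFD-fed mice. In LFD-fed mice it had 2.60, 14.5 and 23.0 TPM. The diets overlapped widely, and the log2 fold change was 0.51 (standard error 0.60, edgeR unadjusted p = 0.422, adjusted p = 0.856), or 0.10 without LFD replicate 1. *Bco2* and *Tex12* overlap *Il18* on the other strand.

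*Il33* (ENSMUSG00000024810, chromosome 19 from 29925114 to 29960718, plus strand) encodes an alarmin of stromal and endothelial nuclei that acts on regulatory T cells and innate lymphoid cells. It was the only one of the 8 with a negative fold change. It had 6.06, 11.0 and 8.92 TPM in HFD-fed mice against 5.31, 22.4 and 27.6 TPM in LFD-fed mice. LFD replicate 1 was the lowest of all mice and the other LFD-fed mice were the highest, so the diets overlapped. The log2 fold change was -0.76 (standard error 0.38, edgeR unadjusted p = 0.0892, adjusted p = 0.558). Without LFD replicate 1 it was -1.09 (edgeR unadjusted p = 0.00232, adjusted p = 0.174). The 9 stromal, mesothelial and endothelial markers had summed levels of 1158, 1486 and 1066 TPM in HFD-fed mice and 707, 2368 and 7392 TPM in LFD-fed mice. In TPM this was the order of *Il33* among the LFD-fed mice but not among the HFD-fed mice. *Col1a1* alone held 182, 1166 and 5842 TPM of the LFD sums. Of the 7 markers tested, 4 had a negative log2 fold change. The endothelial *Pecam1*, *Cdh5* and *Kdr* had positive ones, of 0.83, 0.86 and 0.69. The part of these markers in the value of *Il33* was not tested.

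*Il15* (ENSMUSG00000031712, chromosome 8 from 82331632 to 82403222, minus strand), whose product is also made by muscle, had 2.89, 5.52 and 7.67 TPM in HFD-fed mice against 2.00, 4.94 and 4.66 TPM in LFD-fed mice. On the log2 CPM scale every HFD-fed mouse was above every LFD-fed mouse, and in TPM they overlapped. Its log2 difference between the diets was 0.71 (standard error 0.31, edgeR unadjusted p = 0.0572, adjusted p = 0.494), and 0.70 with same-numbered mice paired (edgeR unadjusted p = 0.0429, adjusted p = 0.267). The muscle markers were lower in all HFD-fed mice, and their part in this value was not tested.

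*Il6* (ENSMUSG00000025746, chromosome 5 from 30013114 to 30019981, plus strand), a cytokine of macrophages, stroma and contracting muscle, had 0.35, 1.91 and 3.09 TPM in HFD-fed mice. In LFD-fed mice it had 0.02, 0.06 and 2.09 TPM. LFD replicate 3 held 32 rounded counts and the other LFD-fed mice 1 and 2, so that 1 mouse brought the diets to overlap. Its log2 difference between the diets was 1.48 (standard error 1.17, edgeR unadjusted p = 0.248, adjusted p = 0.756). Each HFD-fed mouse was above the LFD-fed mouse of its number, and with these mice paired the value was 2.08 (edgeR unadjusted p = 0.0333, adjusted p = 0.237). Unpaired and without LFD replicate 3 it was 4.24 (edgeR unadjusted p = 0.00682, adjusted p = 0.129), where the remaining LFD-fed mice held 3 counts together, and without HFD replicate 3 it was 0.81. *Ifng* (ENSMUSG00000055170, chromosome 10 from 118441046 to 118445892, plus strand) was nearly undetected, with 1, 7 and 5 rounded counts in HFD-fed mice against 0, 2 and 0 in LFD-fed mice. A count of 0 allows up to 0.191 CPM in LFD replicate 1 and 0.146 in LFD replicate 3. Summed over mice, the ratio per normalized read was 6.01 (95% exact interval 1.36 to 54.8, counting error only). *Gm49751* overlaps it on the same strand. The interval leaves out the spread between mice, which so few counts do not allow to be estimated.

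**Figure D2:**
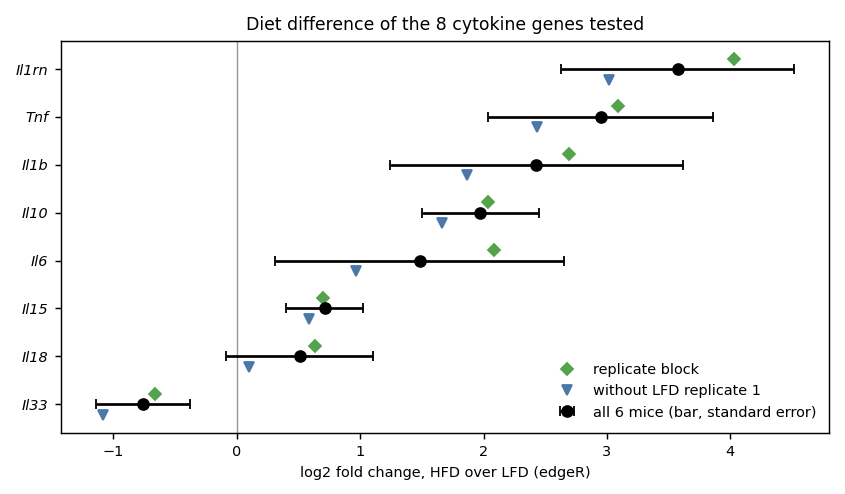
Log2 fold change, HFD over LFD (horizontal axis), of the 8 cytokine genes tested by edgeR, with bars of 1 standard error for all 6 mice, diamonds for the fit with same-numbered mice paired and triangles for the fit without LFD replicate 1. The values run from -0.76 for *Il33* to 3.57 for *Il1rn*, and no gene changes direction between the 3 fits.

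The order of the mean levels differed between the diets. In HFD-fed mice it was *Il1rn* at 41.0 ± 14.7 TPM (SD, n = 3), *Il1b* at 17.9 ± 18.7, *Il18* at 14.6 ± 9.07 and *Il33* at 8.67 ± 2.50, followed by *Il15*, *Tnf*, *Il10*, *Il6*, *Il1a* and *Ifng*. In LFD-fed mice it was *Il33* at 18.5 ± 11.7 TPM (SD, n = 3), *Il18* at 13.4 ± 10.3, *Il1b* at 4.36 ± 5.19 and *Il1rn* at 4.12 ± 3.62, followed by *Il15*, *Il10*, *Tnf*, *Il6*, *Il1a* and *Ifng*. The ranges of neighbors in these orders overlapped between mice, except *Il15* and *Il10* in LFD-fed mice. Among the 4 highest of each diet, some orders held within each animal. *Il1rn* was above *Il1b* in every HFD-fed mouse. *Il33* was above *Il18*, and *Il18* above *Il1b*, in every LFD-fed mouse. The other neighbors among these 4 changed order between mice.

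Within a mouse, the make-up of the cytokine transcripts differed in the same way. *Il1rn* took 44.5%, 51.7% and 34.6% of the summed TPM of the 10 genes in HFD-fed mice against 1.33%, 9.53% and 9.25% in LFD-fed mice. *Il33* took 10.9%, 12.7% and 5.78% in HFD-fed and 50.3%, 42.7% and 35.4% in LFD-fed mice of the same order. These shares do not depend on the scaling between libraries, and neither gene overlapped between the diets. Shares of *Il18* were 11.7% to 16.2% in HFD-fed and 24.6% to 29.5% in LFD-fed mice, and those of *Tnf* were 3.04% to 6.30% and 0.379% to 2.23%. The shares add up to a whole, so a larger share of 1 gene lowers the others. The ratio of *Il1rn* to *Il1b*, antagonist to agonist, was 2.79, 8.16 and 1.36 in HFD-fed mice against 1.56, 1.75 and 0.712 in LFD-fed mice, and it overlapped between the diets. The ratio of *Il1rn* to *Il10* was 9.54 to 11.8 in HFD-fed and 0.389 to 3.73 in LFD-fed mice, so these anti-inflammatory members were not in a fixed ratio. The ratio of *Il10* to *Tnf* overlapped, with 0.576 to 1.24 against 1.15 to 9.0.

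**Figure D3:**
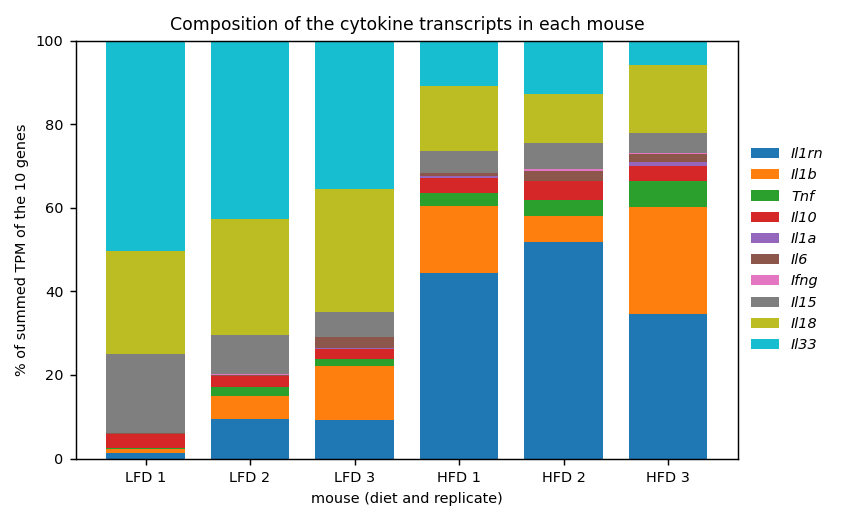
Share of each of the 10 cytokine genes (stacked bars, % of their summed TPM) in each mouse, LFD replicates 1 to 3 and HFD replicates 1 to 3. *Il1rn* fills 34.6% to 51.7% of the bars of HFD-fed mice and 1.33% to 9.53% of those of LFD-fed mice, where *Il33* and *Il18* take most of the bar.

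Macrophages are a main source of several of these transcripts, so each was also set against the macrophage markers of its own mouse, a scale chosen after the data were seen. Per 1000 TPM of the 12 markers, *Il1rn* had 13.3, 19.1 and 13.6 TPM in HFD-fed mice against 0.236, 1.95 and 1.65 TPM in LFD-fed mice. *Il10* had 1.13, 1.64 and 1.43 TPM against 0.606, 0.522 and 0.448 TPM, and on this scale LFD replicate 1 was no longer the lowest mouse. *Il1rn*, *Il10*, *Tnf*, *Il1b* and *Il1a*, 5 of the 10, were above in every HFD-fed mouse, beside 2.11% of all genes on the same scale. For *Il1b* the gap was narrow, with 2.34 TPM in HFD replicate 2 and 2.32 TPM in LFD replicate 3. *Il33* was below in every HFD-fed mouse (2.28 to 4.70 against 6.32 to 8.94), as were 13.5% of all genes. *Il18* overlapped, with 4.32 to 6.39 against 4.38 to 5.66. *Lyz2*, the lysozyme gene of myeloid cells, made up 42.5% to 63.0% of the marker sum. Without it, *Il1rn*, *Il10*, *Tnf* and *Il1a*, 4 of the 10, were above in every HFD-fed mouse (2.67% of all genes) and *Il33* was below (18.8%). *Il1b* then overlapped, with 11.9, 4.84 and 23.8 TPM per 1000 TPM of the other markers against 0.263, 2.22 and 6.27. The markers themselves differed between the diets in both directions. *Adgre1*, *Cd68* and *Fcgr1*, 3 of the 12, were higher in every HFD-fed mouse in log2 CPM, beside 6.72% of all genes tested. In TPM all 3 overlapped, and their edgeR adjusted p-values were 0.4654, 0.4126 and 0.3725. *Cd163*, a scavenger receptor of resident macrophages, was lower in every HFD-fed mouse, beside 9.23% of all genes tested in log2 CPM. Its log2 fold change was -1.53 (edgeR unadjusted p = 0.00614, adjusted p = 0.241).

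**Figure D4:**
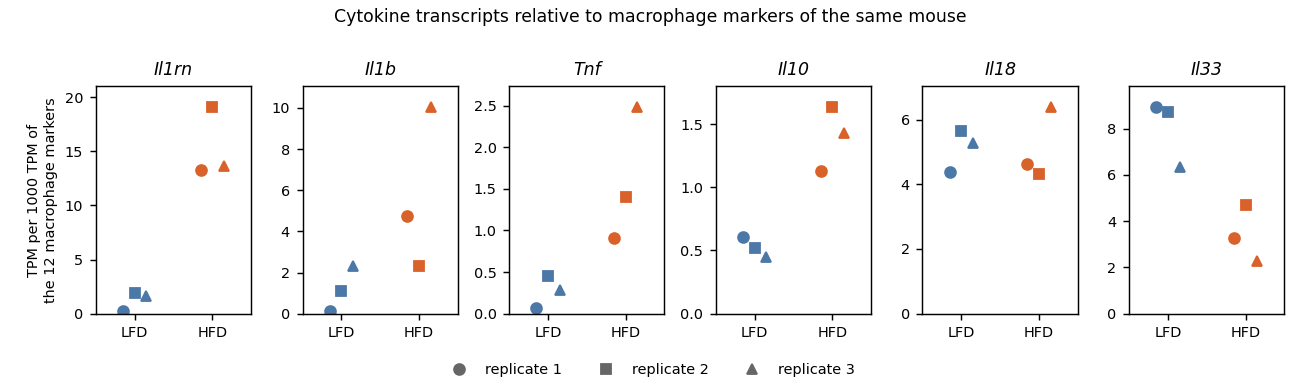
TPM of 6 cytokine genes per 1000 TPM of the 12 macrophage markers of the same mouse (linear vertical axes from 0, a scale of its own for each gene), with LFD-fed mice in blue, HFD-fed mice in orange and the symbol giving the replicate number. *Il1rn* lies at 13.3 to 19.1 in HFD-fed and at 0.236 to 1.95 in LFD-fed mice, *Il18* overlaps, and *Il33* is lower in every HFD-fed mouse.

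Markers of other immune cells are given for the same mice. Summed levels of 12 T and NK cell markers were 16.1 to 45.8 TPM in HFD-fed and 12.4 to 22.7 TPM in LFD-fed mice, and overlapped. In LFD replicate 1, *Trac* alone, a T cell receptor gene, held 20.8 TPM. Without *Trac* the sums were 14.2, 34.6 and 44.0 TPM against 1.85, 13.8 and 11.7 TPM and did not overlap, a choice made after the values were seen. Singly, 9 of the 12 were higher in every HFD-fed mouse in log2 CPM, beside 6.72% of all genes tested. Of the 11 tested, 7 had an unadjusted p under 0.05 by edgeR, all higher, beside 3.86% of all genes. *Cd4*, *Cd8a* and *Trac* overlapped between the diets, *Trac* with a log2 fold change of -2.11. *Ncr1*, an activating receptor that defines NK cells, had 1.38, 3.91 and 4.67 TPM in HFD-fed mice against 0.08, 0.93 and 0.53 TPM in LFD-fed mice. The 9 genes without overlap differed in the direction of *Tnf* and *Il10*, and their part in those values was not tested. Summed levels of 6 neutrophil markers were 26.0 to 180 TPM in HFD-fed and 6.16 to 159 TPM in LFD-fed mice, with *Ly6g* at 0 in 3 libraries. They were highest in replicate 3 of each diet, as was *Il1b*, and their part in its level was not tested. The 6 dendritic cell markers summed to 14.6 to 26.4 TPM and 13.8 to 39.8 TPM, and overlapped.

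Of 16 receptor genes, all tested, 0 were called, and 3 had an unadjusted p under 0.05 by edgeR. All 3 were higher in HFD-fed mice, beside 3.86% of all genes tested. The list's median log2 fold change was 0.19, beside -0.05 for all genes tested. *Il2rb*, the β chain shared by the IL-2 and IL-15 receptors, had 2.90, 5.93 and 9.09 TPM in HFD-fed mice against 0.29, 1.81 and 1.12 TPM in LFD-fed mice. Its log2 difference between the diets was 2.69 (standard error 0.57, edgeR adjusted p = 0.178; DESeq2 adjusted p = 0.000175, past the thresholds). *Il18r1*, which binds IL-18, had a log2 fold change of 1.70 (edgeR adjusted p = 0.407) and *Il10rb*, the shared chain of the IL-10 receptor, one of 0.76 (edgeR adjusted p = 0.447). The receptors of TNF and IL-1 had log2 fold changes of -0.03 for *Tnfrsf1a*, 0.80 for *Tnfrsf1b* and -0.37 for *Il1r1* (edgeR adjusted p = 0.982, 0.707 and 0.735). *Il1rl1*, the receptor of IL-33, swung between 5.08 and 120 TPM within the LFD-fed mice.

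Among 8 decoys and inhibitors, all tested, 0 were called. At an unadjusted p under 0.05, 1 was higher and 1 was lower, beside 3.86% and 6.62% of all genes tested. *Il1r2*, the decoy receptor that binds IL-1 without signaling, was lower. It had 1.52, 2.11 and 4.87 TPM in HFD-fed mice against 14.2, 22.8 and 10.7 TPM in LFD-fed mice, and the diets did not overlap. The log2 fold change was -2.39 (standard error 0.50, edgeR adjusted p = 0.177; DESeq2 adjusted p = 0.000732, past the thresholds), and -2.14 without LFD replicate 1. Of these brakes on IL-1, *Il1r2* was thus below and *Il1rn* above in every HFD-fed mouse. In log2 CPM, 1 of the 8 listed genes lay above and 1 below in every HFD-fed mouse, beside 6.72% and 9.23% of all genes tested. *Tnfaip3*, which encodes the NF-κB inhibitor A20, had a log2 fold change of 1.01 (edgeR adjusted p = 0.326).

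Of 16 genes for cytokine processing and signaling, all tested, 0 were called. An unadjusted p under 0.05 was found for 4, all higher in HFD-fed mice, beside 3.86% of all genes tested. They were *Casp1* (log2 fold change 1.09), the protease that matures IL-1β and IL-18, *Nlrp3* (1.95), the inflammasome sensor that activates it, and *Stat4* (1.48) and *Tbx21* (1.58), transcription factors of interferon-γ production. Their edgeR adjusted p-values were 0.383 to 0.433. Without HFD replicate 3 the log2 fold change was 1.01 for *Nlrp3* and 0.66 for *Casp1*. *Stat3*, which carries the signals of IL-6 and IL-10, had a log2 fold change of -0.22 (edgeR adjusted p = 0.844).

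Of 16 target genes 15 were tested and 0 were called. At an unadjusted p under 0.05, 4 were higher in HFD-fed mice, beside 3.86% of all genes tested. The median log2 fold change over the 15 was 1.06. *Cxcl9*, a chemokine induced by interferon-γ, had 13.4, 30.3 and 71.0 TPM in HFD-fed mice against 4.14, 11.7 and 7.48 TPM in LFD-fed mice. Its log2 difference between the diets was 2.37 (standard error 0.52, edgeR adjusted p = 0.188; DESeq2 adjusted p = 0.000923, past the thresholds), and *Ifng* itself was nearly undetected in the same libraries. *Ccl2*, a chemokine that draws monocytes and is induced by TNF and IL-1, had a log2 fold change of 3.17 (edgeR adjusted p = 0.363), with 2.10 when HFD replicate 3 was left out and 4.6 when LFD replicate 3 was. *Bcl3*, an NF-κB cofactor, had one of 1.12 and *Gbp2*, an interferon-induced GTPase, one of 1.23, which was 0.62 without HFD replicate 3. *Saa3* and *Lcn2*, acute phase targets of IL-1 and IL-6, overlapped between the diets, with 39.8 to 1130 TPM and 26.0 to 466 TPM for *Saa3*.

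Of 32 other cytokine genes 28 were in the table, 11 were tested and 0 were called. At an unadjusted p under 0.05, 2 were higher, beside 3.86% of all genes tested. These were *Ebi3*, a subunit of IL-27 and IL-35 (log2 fold change 1.38, edgeR adjusted p = 0.302), and *Ltb*, the gene of lymphotoxin β (1.68, edgeR adjusted p = 0.333). A count of 0 in all 6 mice was found for 6 of them. The T helper cytokines *Il13*, *Il17a* and *Il22* were among these.

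**Figure D5:**
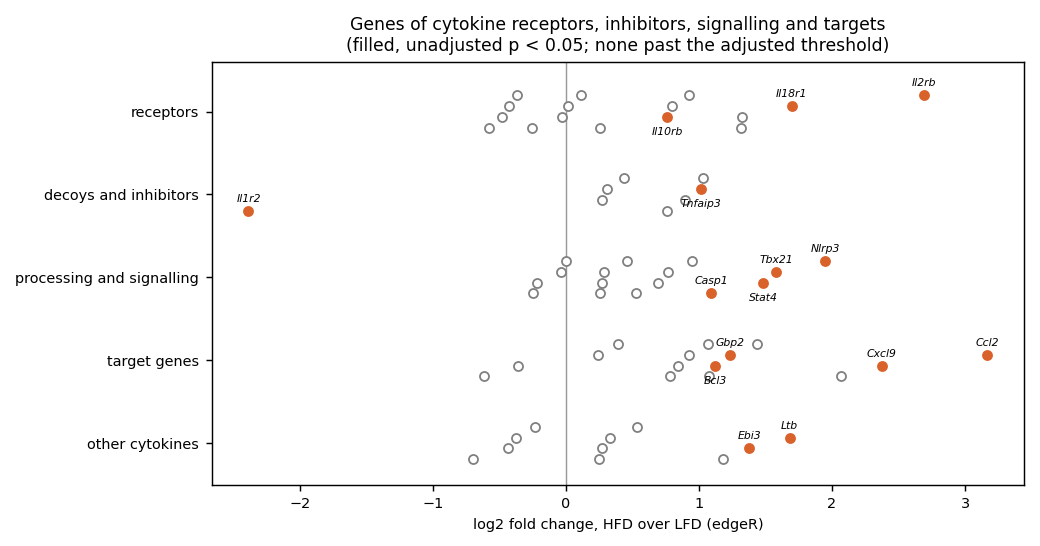
Log2 fold change, HFD over LFD (horizontal axis), of the tested genes of 5 lists, with filled points for an unadjusted p under 0.05 by edgeR and names for the genes picked by smallest p. Filled points lie to the right of 0 in every list, with the exception of *Il1r2* at -2.39.

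For each cytokine gene tested, the genes with the most similar profile were found as those with the smallest root mean square difference of centered log2 CPM over the 6 mice. They were *Ms4a4c* (0.25) and *Fcgr4* (0.28) for *Tnf*, *Cxcl2* (0.48) and *Clec4e* (0.51) for *Il1b*, and *Il7r* (0.46) and *Ccl4* (0.56) for *Il1rn*. For *Il10* they were *Lck* (0.15) and *Milr1* (0.17), and for *Il6* they were *Car6* (0.31) and *Ereg* (0.38). *Il15*, *Il18* and *Il33* were nearest to *Ero1lb* (0.07), *I830077J02Rik* (0.07) and *Zfr2* (0.09), and then to *Gm13157* (0.08), *Gm43068* (0.16) and *Cd33* (0.12). No cytokine gene was among the 2 nearest genes of another of the 8. Genes of small amplitude have small differences by this measure, so its values compare genes only within 1 member.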

How the data were processed

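BAT transcripts of 3 HFD-fed and 3 LFD-fed mice were measured by RNA-Seq after 4 weeks of feeding, from ribosomal RNA-depleted libraries sequenced from 1 end over 75 bases. The authors removed adapters with Trimmomatic 0.36, quantified reads with RSEM 1.3.0 on GRCm38.p4 (Ensembl 84) and deposited expected counts per gene, which are not normalized. The deposited TPM values are expected counts corrected for effective length by RSEM. The deposited gene lengths were not used in a test.

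Expected counts were rounded to whole numbers. The test across genes was that of edgeR 4.0.16 in R 4.3.3 (quasi-likelihood test, TMM normalization, filter on low counts, Benjamini-Hochberg adjustment over 17668 genes), and standard errors were taken from the F statistic. Log2 CPM used a prior count of 2. DESeq2 1.42.0 and limma 3.58.1 on log2(TPM + 1) were alternatives, and the fits were tested on simulated data. Whole libraries of 17156991 to 21603487 rounded counts limit genes with few reads, and the intervals of *Il1a* and *Ifng* cover counting error only. No library repeated another of its diet (chi-square per degree of freedom 71.7 to 558), and pairs across the diets were not compared in this way. Diets and replicate numbers come from the labels. Deviations from the diet mean correlated across genes by 0.498, 0.229 and 0.522 in the same-numbered pairs, and by -0.528 to 0.053 in the other pairs. The replicate number was therefore also fitted as a block. The labels do not link mice between the diets, so the paired p-values rest on a pairing drawn from these same data.

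The 10 genes and the gene lists were chosen with earlier results of these data known, so their p-values are not independent evidence. Genes named from a list are those with the smallest unadjusted p under 0.05, at most 4 per list, and other genes are named for their role after their values were seen. Positions are from GENCODE M21 (GRCm38), and all 10 identifiers matched. No receptor, target or marker list was tested as a set.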

Additional observations from a re-analysis of the deposited data

How the results depend on the processing

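By edgeR, 0 genes and 0 of the 10 cytokine genes were called with RLE size factors, no normalization factors or either other filter on low counts. The same held with mitochondrially encoded genes left out, the replicate block or each mouse left out. At an adjusted p under 0.05 alone, the main fit had 0 genes, the replicate block 184 and the fit without LFD replicate 3 222. *Ccl2* (0.0224 with the edgeR block) and *Il1r2* (0.0447 by edgeR without LFD replicate 3) were among these. The smallest edgeR adjusted p of the cytokine genes in these fits was that of *Il10*, 0.0779 and 0.109. DESeq2 called 412 genes, 2 of the 10, and 1 each of the receptors, inhibitors and target genes. Limma on log2(TPM + 1) called 1 gene, *Rnu3a*, and 0 of the 10, and moved the median of all genes from -0.05 to -0.18. The 3 cytokine genes at an unadjusted p under 0.05 became 6 with DESeq2, 5 with no filter, 0 with at least 10 counts in every sample (which removed *Tnf*, *Il1rn* and *Il10*), 6 with the replicate block, and 2 to 6 with 1 mouse left out (6 without LFD replicate 3). The 5 genes above in every HFD-fed mouse became 1 with at least 10 counts in every sample. All 8 fold changes kept their direction in every setting that gave a value. The block changed no other call. *Il1a* and *Ifng* have wide counting intervals at this depth, and *Il6* varied widely between mice of a diet.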
